A study of Mus musculus with 24 samples.

Results

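Wild-type mouse testes taken on postnatal day 26 were compared with wild-type testes taken on day 24, using the raw gene counts of every library labelled with those days: 2 libraries at day 24 and 2 at day 26, so 4 of the 24 in the series. The labels name tissue, genotype, day and replicate, so the libraries are called WT_d24_1, WT_d24_2, WT_d26_1 and WT_d26_2 here. The methods of the study call them biological replicates without saying whether each is 1 animal. The p-values therefore measure only the spread between libraries of a group, pooled over the libraries of the fit, which may be partly technical. The other libraries are wild-type testes of days 20 and 22, with 4 libraries each by the labels (the methods name fewer for day 20, and the labels were used), and testes of homozygous *Atad2* knockout mice at the same 4 days. The knockout allele carries a *lacZ* reporter that joins the first part of *Atad2* to beta-galactosidase and was exposed to a ubiquitous Cre that deletes 1 exon. Whole testes were used, so a transcript that is higher can stand for more cells of a type or for more RNA per cell, and these cannot be told apart in bulk RNA.

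In the first wave of spermatogenesis the germ cells of a young mouse advance together, so the age of the testis sets which cells are its most advanced. Spermatocytes complete meiosis and give round spermatids, which build the acrosome, the enzyme-filled cap that serves fertilisation, and the parts of the sperm tail. The spermatids then elongate, and their histones are replaced first by transition proteins and then by protamines, the small basic proteins that pack sperm DNA. The step from day 24 to day 26 addresses what is added to the testis transcriptome as the leading cells pass into that second phase.

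The 4 libraries held 14422506 to 18017080 counts assigned to genes, and 19175 to 19370 genes had at least 1 count. A level is given in CPM, the counts of a gene relative to the library total after edgeR's default scaling (TMM), and a count of 3 corresponded to 0.174 to 0.215 CPM. Log2 CPM correlated across genes at 0.970 within day 24 and 0.978 within day 26. Between the days the correlation ran from 0.953 to 0.974, so WT_d24_1 was as close to the day 26 libraries as to its own replicate. Transcripts of the epididymis, the duct beside the testis, split the replicates: *Crisp1*, a secreted epididymal protein, was at 0.124 and 637 CPM in WT_d24_1 and WT_d24_2 and at 0.174 and 479 CPM in WT_d26_1 and WT_d26_2. *Adam7*, another epididymal gene, was at 0 and 48 CPM at day 24 and at 0 and 65.6 CPM at day 26. Over the 5 tested genes of the epididymal list the summed level was 2.23 and 728 CPM at day 24 and 5.56 and 548 CPM at day 26, high in replicate 2 of both days. The knockout libraries split in the same way, with *Crisp1* at 0.0691 and 134 CPM at day 24 and 0.0689 and 109 CPM at day 26. The part of these transcripts in the results was not tested beyond the fits that leave out single libraries. *Atad2* itself did not differ past the threshold (132 and 106 CPM at day 24, 113 and 138 CPM at day 26, log2 change 0.07, SE 0.25, edgeR adjusted p = 0.998).

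Between day 24 and day 26, 47 of 17170 genes passed the test, of which 45 rose (0.262% of the genes tested) and 2 fell (0.0116%). The fit was edgeR's quasi-likelihood test over all 24 libraries with Benjamini-Hochberg adjusted p under 0.05, and 1373 genes had an unadjusted p under 0.05. The 45 rises were from 0.66 to 4.71 on the log2 scale with a median of 1.87, against a median of 0.01 over all genes, and 38 of them were at least 2-fold and 20 at least 4-fold. In every one of the 47 genes the 2 libraries of one day lay wholly above the 2 of the other. Libraries did not overlap in the higher direction for 26.6% of all genes and in the lower direction for 19.8%. The count depended on the libraries: with 1 day 24 or day 26 library left out it was 7 without WT_d24_1 (2 higher and 5 lower), 1 without WT_d24_2, 1 without WT_d26_1 and 25 without WT_d26_2. In that order, 3, 1, 1 and 25 of the 47 genes kept the call. The count was 144 without WT_d20_2, a day 20 library with 3.26% of its counts on mitochondrial ribosomal RNA (0.484% to 0.816% in the other 3 of that group). Fitted on the 8 libraries of days 24 and 26 alone, both genotypes included, 1171 genes were called higher (6.97% of 16800) and 165 lower (0.982%), and 46 of the 47 genes were among them. The 47 kept their direction in each of the 15 other fits that were run.

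**Figure D1:**
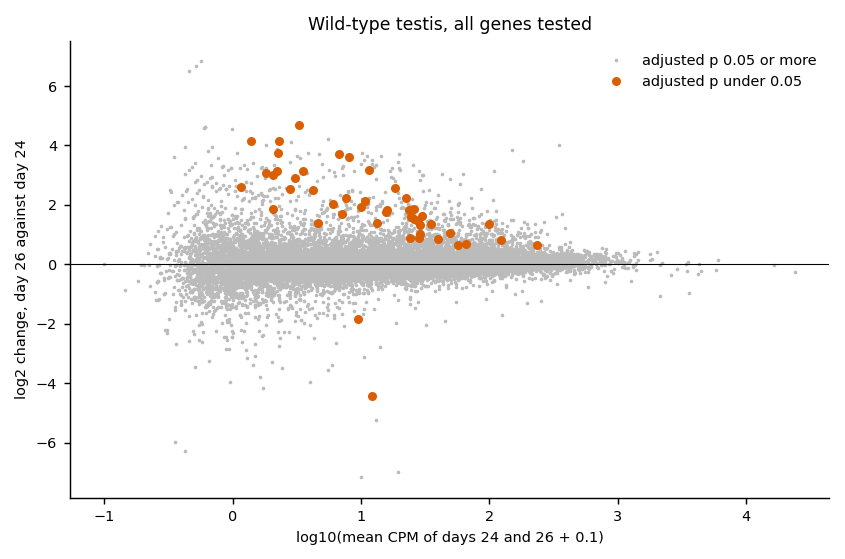
Log2 change from day 24 to day 26 (vertical axis) of the 17170 genes tested against log10 of the mean CPM of the 4 wild-type libraries plus 0.1 (horizontal axis), with orange points at adjusted p under 0.05 and grey points for the rest. The 45 rises reach 4.71 on the log2 scale, and the 2 falls, *H19* and *Spint5*, lie at -1.84 and -4.41.

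Regulatory sequence near the start sites is shown for 3 genes the results turn on. *Tmem144* is the riser whose promoter window holds the full cyclic AMP response element, *Spata32* is one of the largest rises and holds the shorter form of it, and *Prm1* has the largest change in the elongating spermatid list. The element, TGACGTCA, is the site bound by CREM, an activator of spermatid genes. Each window runs 250 bases before to 50 after a RefSeq start site (GRCm38.p6, the mm10 assembly), 5′ to 3′ on the gene's strand, and capitals mark TGACGT or its complement on the other strand. The windows lie on the minus strand at chr3:79842630-79842929 for *Tmem144*, one of its 4 start sites, chr11:103218383-103218682 for *Spata32* and chr16:10796774-10797073 for *Prm1*.
Tmem144: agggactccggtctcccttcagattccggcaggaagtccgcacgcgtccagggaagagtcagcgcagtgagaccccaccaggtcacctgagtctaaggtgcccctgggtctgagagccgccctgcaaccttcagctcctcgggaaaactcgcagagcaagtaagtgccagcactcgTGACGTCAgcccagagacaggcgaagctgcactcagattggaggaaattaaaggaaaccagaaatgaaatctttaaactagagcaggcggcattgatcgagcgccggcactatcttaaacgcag
Spata32: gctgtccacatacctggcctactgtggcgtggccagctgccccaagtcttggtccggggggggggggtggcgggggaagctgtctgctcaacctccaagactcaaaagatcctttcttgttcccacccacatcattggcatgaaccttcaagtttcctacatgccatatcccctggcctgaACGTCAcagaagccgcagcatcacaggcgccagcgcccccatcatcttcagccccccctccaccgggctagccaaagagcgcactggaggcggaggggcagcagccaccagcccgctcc
Prm1: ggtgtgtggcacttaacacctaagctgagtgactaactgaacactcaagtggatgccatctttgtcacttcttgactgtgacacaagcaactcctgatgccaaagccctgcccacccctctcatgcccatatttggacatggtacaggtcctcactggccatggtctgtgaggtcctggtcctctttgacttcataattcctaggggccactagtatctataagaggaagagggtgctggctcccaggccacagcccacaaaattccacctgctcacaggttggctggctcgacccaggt
The element starts 74 bases before the start site in *Tmem144* and the shorter match starts 69 bases before it in *Spata32*. The *Prm1* window holds no exact match to either. Only exact matches were searched, so near matches, such as tgacttca in the *Prm1* window, were not counted. Of the 45 rising genes, 33 had a window, 49 windows in all. TGACGTCA was in 1 of the 49 (2.04%) against 1.79% of all 32851 windows and 2.78% of the windows of genes tested, and TGACGT in 6 (12.2%) against 7.51% and 10.1%, counting both strands and counting a window with TGACGTCA in both. Of the other motifs searched, AACAATG was in 4 of the 49 (8.16%) against 3.78% of all windows and 2.40% of those of genes tested, CCAAT in 14 (28.6%) against 37.4% of each, and TATAAA in 1 (2.04%) against 13.6% and 8.12%. In the 1172 windows of the genes called higher in the 8-library fit described above, TGACGTCA was in 3.58%, TGACGT in 9.30%, AACAATG in 5.29%, CCAAT in 39.5% and TATAAA in 9.30%. These shares are descriptions and a match is not evidence of binding.

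The 12 largest rises came from genes of low level, at or under 1.05 CPM in every library of days 20 and 22 except for *Noxred1*. *Spata32*, named for its association with spermatogenesis (chromosome 11, 103208127 to 103218432), was at 1.12 and 0.747 CPM at day 24 and at 14.5 and 10.0 CPM at day 26 (log2 change 3.71, SE 0.65, edgeR adjusted p = 0.0186). At days 20 and 22 it was between 0.0786 and 0.775 CPM. *Paqr5*, a membrane progestin receptor (chromosome 9, 61953481 to 62026856), was at 1.24 and 1.15 CPM at day 24 and at 18.3 and 11.3 CPM at day 26 (3.62, SE 0.57, adjusted p = 0.00850). *Paqr5* had already passed the test upward from day 22 to day 24 (log2 change 2.49, adjusted p = 0.0248). *Noxred1*, an oxidoreductase-domain gene (chromosome 12, 87221040 to 87238732), had been at 1.51 to 3.05 CPM at days 20 and 22 and 2.17 and 2.38 CPM at day 24. It then reached 26.8 and 14.3 CPM at day 26 (3.17, SE 0.45, adjusted p = 0.00246).

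*Odf3b*, an outer dense fibre family gene, went from 0.248 and 0.340 CPM to 5.04 and 2.94 CPM (log2 change 3.74, SE 0.69, adjusted p = 0.0204). *Smok2b*, a sperm motility kinase, went from 0.248 and 0.204 CPM to 4.40 and 3.95 CPM (4.15), and *Hmgb1-rs17*, annotated as an unprocessed pseudogene, from 0.0621 and 0.408 CPM to 7.53 and 4.81 CPM (4.71). Both belong to families of near-identical copies, and pairs that aligned to several places were not counted, so their levels are uncertain. The long noncoding RNA *4930432J09Rik* had 2 counts in each day 24 library against 51 and 27 at day 26, and was at least 12.5-fold higher against a floor of 3 counts per library. *Wnt3*, a secreted signalling ligand, went from 0.496 and 0.340 CPM to 4.81 and 2.80 CPM, and *Dscaml1*, a cell adhesion gene, from 0.310 and 0.408 CPM to 3.36 and 2.80 CPM (log2 changes 3.16 and 3.08). The others by size were *BC055111* (3.15), *Efcab1*, an EF-hand calcium-binding gene (3.02), and *Dydc2* (2.92). In each of the 12 genes WT_d26_1 was above WT_d26_2, and the lower of them was above both day 24 libraries.

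**Figure D2:**
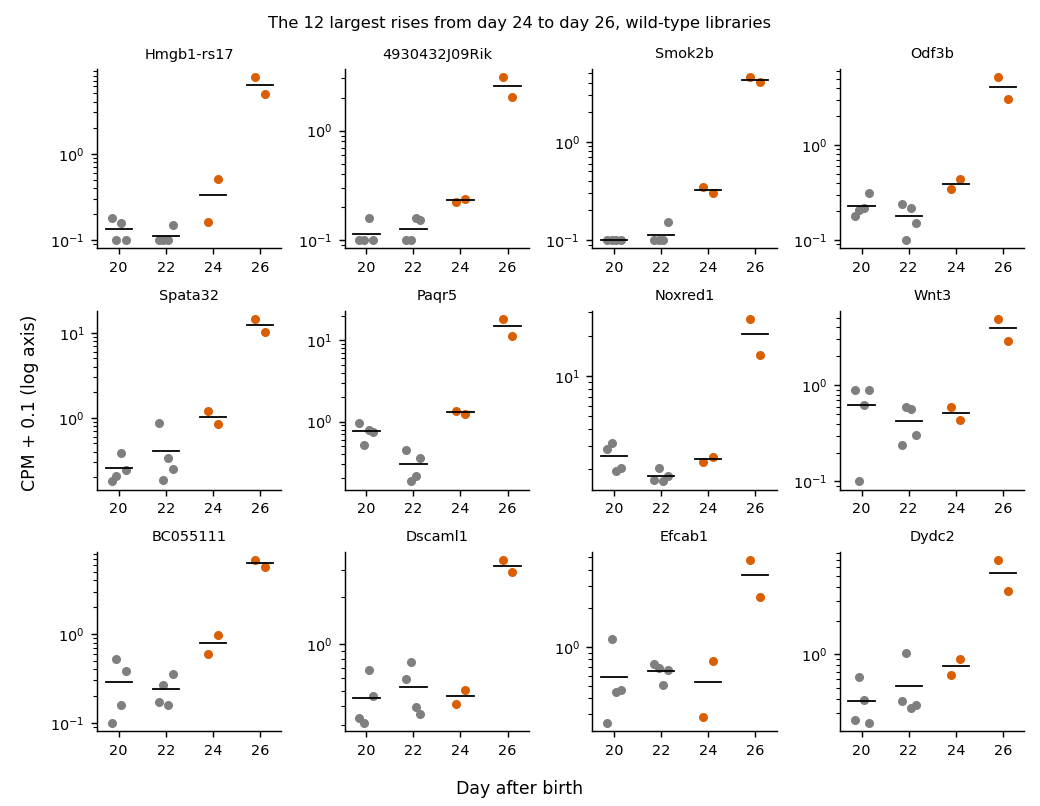
CPM plus 0.1 on a log axis against postnatal day for the 12 largest rises, each point 1 wild-type library (4 at days 20 and 22, 2 at days 24 and 26, the latter in orange) and each bar the mean. *Noxred1* and *Wnt3* reach at most 3.05 and 0.792 CPM through day 24, while *Paqr5* and *Smok2b* are already higher at day 24 than at day 22.

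The rise that was lost in none of the 15 other fits was *Skp2*, which encodes the F-box receptor of an SCF ubiquitin ligase (chromosome 15, 9111985 to 9155425). Its level was 12.8 and 13.6 CPM at day 24, 42.6 and 33.8 CPM at day 26, and between 11.5 and 16.6 CPM in the 8 libraries of days 20 and 22 (log2 change 1.53, SE 0.17, adjusted p = 1.35e-04). The 10 libraries of days 20 to 24 thus lay within 11.5 to 16.6 CPM, below both day 26 libraries. *Fam8a1* went from 30.5 and 26.0 CPM to 50.4 and 52.9 CPM (0.87, adjusted p = 0.00246). *Wbp2nl*, which encodes the sperm protein PAWP of the postacrosomal sheath, went from 4.59 and 5.91 CPM to 34.5 and 28.3 CPM (2.58, adjusted p = 0.00246). These and the genes of the next paragraph were named because they passed the test, so that all 47 are accounted for, and not by size.

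The remaining rises spanned several kinds of gene. Among signalling enzymes and their partners, *Prkar2a*, a regulatory subunit of protein kinase A, went from 18.9 and 20.7 CPM to 55.6 and 46.2 CPM, and *Prkcd*, protein kinase C delta, from 11.9 and 17.3 CPM to 51.4 and 38.4 CPM. *Srcin1*, a regulator of Src kinase, rose by 1.85 on the log2 scale. Among cytoskeletal genes, *Tuba4a*, an alpha-tubulin, went from 5.58 and 8.69 CPM to 26.1 and 22.4 CPM, *Klc3*, a kinesin light chain, from 0.745 and 0.815 CPM to 5.79 and 3.37 CPM, and the formin *Fhdc1* and the unconventional myosin *Myo15* had log2 changes of 2.23 and 2.05. Among RNA-binding genes, *Cpeb3* and *Mex3b* rose by 0.90 and 1.03. Among genes of protein turnover, *Nbr1*, an autophagy receptor with the highest level of the 45 (193 and 172 CPM to 301 and 277 CPM), rose by 0.66 and *Herpud1*, of endoplasmic reticulum-associated degradation, by 0.66.

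*Tor1aip1*, an inner nuclear membrane protein, went from 94.9 and 85.5 CPM to 172 and 145 CPM (0.81), and *Abhd5*, a lipase coactivator, from 46.7 and 52.6 CPM to 84.1 and 77.8 CPM (0.70). The glycosyltransferase genes *Mgat4e* and *B4galnt4* rose by 1.92 and 2.50, the antizyme inhibitor *Azin2* by 1.82, the serine protease gene *Prss58* by 2.13 and the phosphatase gene *Phospho1* by 1.41. Also past the threshold upward were *Thegl* (1.06), *Tmem144* (1.33), *Osgin1* (1.88), *Serinc2* (1.87), *Sgip1* (1.39), *Ubxn8* (0.89) and the protocadherin *Pcdhb3* (2.61). The cDNA-clone genes were *4930511M06Rik* (1.69), *4931428F04Rik* (1.46), *4930538K18Rik* (2.25) and *1700001O22Rik* (1.61). Of the 44 rising genes with a position in the annotation (all but *BC055111*), 0 lie on the X chromosome. It holds 729 of the 17170 genes tested, with a median log2 change of -0.01. Of the 729, 178 were higher and 152 lower without overlap, against 26.6% and 19.8% of all genes. In the 8-library fit 62 of 706 X-linked genes passed upward and 9 downward, against 6.97% and 0.982% of all genes in that fit.

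In the gene lists the 45 rises were few: *Cdyl*, a chromodomain gene of the list of histone eviction and chromatin remodelling, *Spata32* and *1700001O22Rik* were the only list members that passed in the fit over 24 libraries. *Cdyl* went from 60.6 and 50.2 CPM to 158 and 128 CPM (log2 change 1.37, SE 0.26, adjusted p = 0.0226), and the median of its 26-member list was 0.01, at -0.06 under upper quartile scaling, with 7 members higher and 5 lower without overlap. The lists below are therefore also described by the calls of the 8-library fit, whose background was 6.97% higher and 0.982% lower, and by the members whose libraries did not overlap, with a background of 26.6% higher and 19.8% lower.

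Genes of elongating spermatids were higher at day 26. All 14 tested members were higher in both day 26 libraries than in both day 24 libraries, with a median log2 change of 2.21 and a range of 1.16 to 4.03. None passed in the 24-library fit and 12 of 14 passed upward in the 8-library fit. *Prm1*, which encodes protamine 1, was at 34.4 and 47.1 CPM at day 24 and 944 and 385 CPM at day 26 (4.03, SE 1.3, adjusted p = 0.267, and 0.0723 in the 8-library fit). The day 26 libraries of *Prm1* differ from each other by more than the day 24 libraries do, and at day 22 its 4 libraries lay between 0.167 and 1.13 CPM. *Prm2*, protamine 2, was at 14.3 and 24.8 CPM and then at 335 and 226 CPM (3.84, adjusted p = 0.249, and 0.0414 in the 8-library fit).

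Of the transition proteins, *Tnp1* was at 23.6 and 20.2 CPM and then at 263 and 125 CPM (3.15, adjusted p = 0.382, and 0.0932 in the 8-library fit). *Tnp2* was at 25.8 and 33.9 CPM and then at 423 and 246 CPM (3.49, adjusted p = 0.297, and 0.0454). The median of the 5 transition protein and protamine genes was 3.49, against 5.24 from day 22 to day 24, and these steps share the day 24 libraries. Among the other elongating spermatid genes, named after their values were seen, *Fscn3*, an actin-bundling fascin, was at 1.49 and 2.72 CPM and then at 31.9 and 20.7 CPM (3.65, adjusted p = 0.0609). *Tssk6*, a testis-specific serine kinase, was at 3.16 and 4.76 CPM and then at 38.5 and 21.7 CPM (2.93, adjusted p = 0.0528). *Spem1*, needed for shedding of spermatid cytoplasm, was at 6.70 and 7.40 CPM and then at 59.9 and 40.7 CPM (2.83, adjusted p = 0.226). Of the remaining members, *Odf1* was at 81.1 and 62.2 CPM and then at 175 and 152 CPM (1.19), and *Gapdhs*, the sperm isoform of a glycolytic enzyme, at 89.7 and 71.2 CPM and then at 251 and 206 CPM (1.51).

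**Figure D3:**
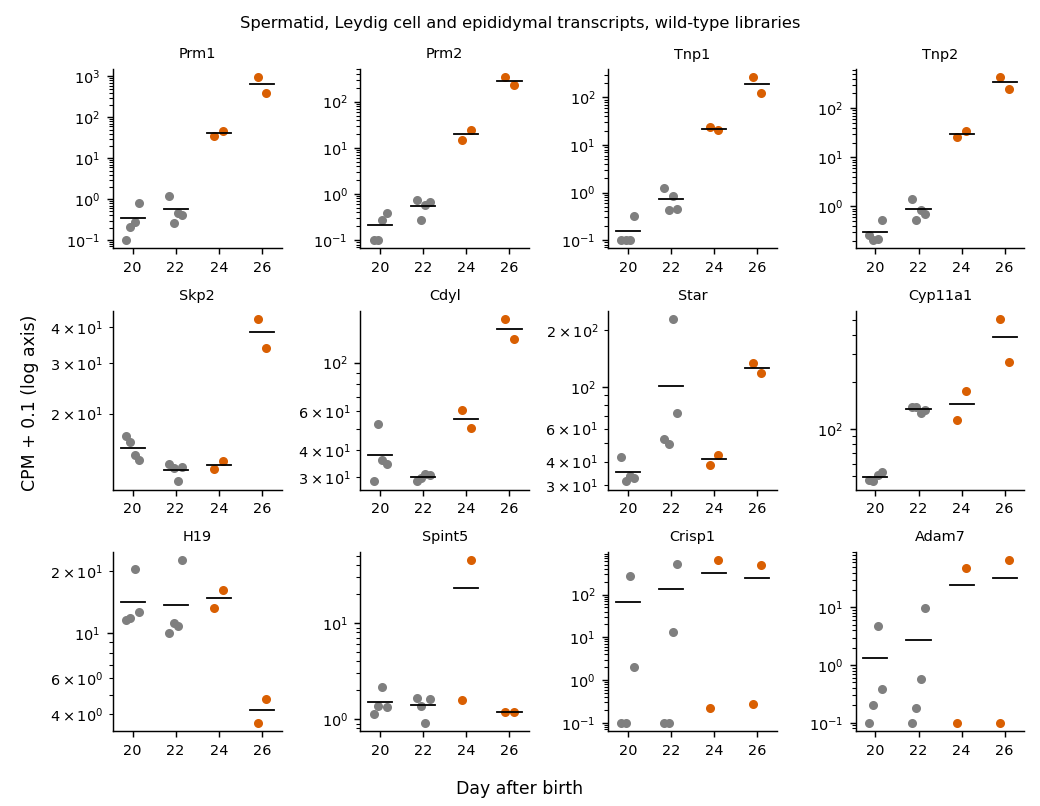
CPM plus 0.1 on a log axis against postnatal day for 12 transcripts, each point 1 wild-type library (4 at days 20 and 22, 2 at days 24 and 26, the latter in orange) and each bar the mean. *Prm1* climbs from 34.4 and 47.1 CPM to 944 and 385 CPM, *Skp2* stays at 11.5 to 16.6 CPM until day 24, and *Spint5*, *Crisp1* and *Adam7* are high in single libraries.

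Round spermatids are the cells present before elongation. All 12 tested members of their list were higher without overlap, with a median log2 change of 0.57 (2.0 from day 22 to day 24), 0 passed in the 24-library fit and 5 in the 8-library fit. *Acrv1*, an acrosomal vesicle protein, was at 117 and 80.6 CPM and then at 162 and 167 CPM (0.73, adjusted p = 0.924), and *Spaca1*, a sperm acrosome membrane protein, at 54.6 and 38.5 CPM and then at 67.0 and 86.5 CPM (0.72, adjusted p = 0.849). The median was 0.29 without WT_d24_2 and 0.87 without WT_d24_1. Of the 28 acrosome genes 26 were higher without overlap and 0 lower, and 13 passed upward in the 8-library fit (median 0.58, and 0.34 without WT_d24_2), with *Acr*, the protease acrosin, at 136 and 119 CPM and then at 146 and 160 CPM (0.27). Of 10 sperm-egg fusion genes 10 were higher without overlap and 6 passed (median 0.70), with *Izumo1*, the sperm ligand of the egg receptor, at 24.5 and 17 CPM and then at 38.4 and 43 CPM and *Izumo2* at 9.0 and 7.06 CPM and then at 15.6 and 15.6 CPM. Of 27 sperm ADAM and processing genes 23 were higher without overlap and 1 lower, and 16 passed upward and 1 downward (median 0.70), with *Adam1a* at 40.2 and 31.2 CPM and then at 79.2 and 79.6 CPM and *Adam1b* at 85.3 and 78.6 CPM and then at 94.4 and 103 CPM.

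Genes of the sperm tail and of its energy supply are given by structure. In the 8-library fit 14 of 27 outer dense fibre and fibrous sheath genes passed upward (median 0.41, and 0.26 without WT_d24_2), with *Odf2* at 1058 and 857 CPM and then at 1255 and 1364 CPM, while 1 of 47 genes of the axoneme and of ciliary assembly did (median 0.19, and 0.07 without WT_d24_2 and 0.09 without WT_d26_2). Without overlap 21 genes of the first list were higher and 1 lower, and 24 and 0 of the second. *Dnah1* and *Dnah2*, axonemal dynein heavy chains, had log2 changes of 0.01 and 0.11. The same fit called 9 of 19 CatSper and sperm ion transport genes higher (median 0.36, with 16 higher and 1 lower without overlap), with the calcium channel subunit *Catsper1* at 67.9 and 43.5 CPM and then at 93.3 and 97.2 CPM and *Catsper2* at 127 and 113 CPM and then at 146 and 163 CPM. It called 9 of 16 sperm glycolysis genes higher (median 0.37, with 15 higher and 0 lower without overlap), with *Pgk2*, a testis phosphoglycerate kinase, at 289 and 265 CPM and then at 439 and 400 CPM. Of 15 testis-specific serine kinase and phosphatase genes 10 were higher without overlap and 0 lower, and 7 passed in that fit (median 0.33, and 0.69 without WT_d24_1), with *Tssk1* at 64.8 and 52 CPM and then at 120 and 120 CPM and *Tssk2* at 57.5 and 46.5 CPM and then at 143 and 125 CPM.

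Of the genes named Spata 18 of 28 passed upward in the 8-library fit (median 0.69), of the Tex genes 7 of 28 upward and 1 downward (median 0.21, and 0.09 without WT_d24_2), of the RIKEN clones named in the series of *1700001O22Rik* 96 of 317 (median 0.52) and of those in the series of *4933400A11Rik* 26 of 95 (median 0.42). Without overlap 23 Spata genes were higher and 2 lower, 17 and 4 of the Tex genes, and 231 of 318 and 56 of 96 tested RIKEN clones were higher and 5 and 3 lower. *Tex101*, a germ cell surface protein, was at 379 and 323 CPM and then at 282 and 253 CPM, and *Tex10* at 192 and 168 CPM and then at 197 and 208 CPM. Of 24 regulators of spermatid transcription 14 were higher without overlap and 2 lower, and 5 passed upward in that fit (median 0.22, and 0.11 without WT_d24_2 and 0.12 without WT_d26_2), with *Crem*, the activator named above, at 184 and 154 CPM and then at 207 and 230 CPM (0.37, adjusted p = 0.755) and *Rfx2*, a ciliary and spermatid factor, at 314 and 262 CPM and then at 305 and 297 CPM. Of 26 genes of nuclear shaping and its bridges 12 were higher without overlap and 4 lower, and 6 passed upward (median 0.17, from 0.06 without WT_d24_2 to 0.31 without WT_d24_1), with *Sun1* and *Sun2* at log2 changes of 0.02 and -0.04. Of 9 testis histone variants 4 were higher without overlap and 1 lower, and 3 passed upward (median 0.03, from -0.09 without WT_d24_2 to 0.12 without WT_d24_1), with the linker histone *Hist1h1t* at 477 and 418 CPM and then at 469 and 445 CPM and *Hist1h2ba* at 1060 and 808 CPM and then at 785 and 651 CPM.

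The lists of meiotic and earlier germ cells had few calls. None of the members of the lists of undifferentiated spermatogonia, differentiating spermatogonia, the synaptonemal complex, meiotic recombination and meiotic division passed in either fit. Their medians lay between -0.20 and 0.02. With 1 library left out the median ran from -0.25 to -0.07 for differentiating spermatogonia, from -0.25 to 0.07 for the synaptonemal complex, from -0.15 to -0.02 for recombination and from -0.12 to 0.10 for meiotic division, the low ends without WT_d24_2 (WT_d26_1 for differentiating spermatogonia) and the high ends without WT_d24_1. The 11 pachytene spermatocyte genes had a median of 0.20 (0.11 without WT_d26_2) with 2 passing upward in the 8-library fit. Of the 11 genes of undifferentiated spermatogonia 7 were lower without overlap and 0 higher, against 19.8% and 26.6% of all genes, with log2 changes from -1.23 to 0.13, and 9 were lower without overlap in the knockout, against 35.9% of all genes there. The first members by list order were *Gfra1* and *Zbtb16*. *Gfra1*, a receptor of spermatogonial stem cells, was at 5.03 and 4.69 CPM and then at 4.92 and 5.74 CPM, and *Zbtb16* was at 21.7 and 23.7 CPM and then at 18.5 and 21.1 CPM. Without overlap 3 of 22 recombination genes were higher and 8 lower, 7 and 4 of 27 meiotic division genes, 1 and 3 of 17 synaptonemal complex genes, and 7 and 0 of the 11 pachytene genes. The counts were 1 and 2 of 7 differentiating spermatogonia genes and 2 and 3 of 11 early meiotic genes. They were 5 and 5 of 26 piRNA pathway genes and 12 and 4 of 29 mRNA storage genes. *Kit*, the receptor of differentiating spermatogonia, was at 63.2 and 64.7 CPM and then at 67.4 and 48.9 CPM, and *Stra8*, of meiotic entry, at 11.7 and 16.2 CPM and then at 14.6 and 17.4 CPM. *Prdm9* and *Dmc1*, of meiotic recombination, both had a log2 change of 0.00 within 2 decimals. *Sycp1*, of the synaptonemal complex, was at 579 and 435 CPM and then at 397 and 441 CPM, and *Piwil1*, the piRNA-binding protein of pachytene cells, at 543 and 452 CPM and then at 438 and 531 CPM. In the 8-library fit 1 of 11 early meiotic genes passed downward, 1 of 26 piRNA pathway genes upward and 3 of 28 genes of mRNA storage and translational delay upward, with *Ybx2*, a germ cell mRNA-binding protein, at 983 and 800 CPM and then at 974 and 1135 CPM.

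Lists with more members lower than higher without overlap included those of DNA replication, of collagens and laminins, of replication-dependent histones and of ribosomal proteins. Of 37 DNA replication genes 17 were lower and 1 higher, and 6 passed downward in the 8-library fit (median -0.13, from -0.24 without WT_d24_2 to -0.04 without WT_d24_1), with *Mcm2* and *Mcm3* of the replicative helicase at 38 and 33.2 CPM and then 25.7 and 25.1 CPM, and at 44.9 and 40.4 CPM and then 30.4 and 29.5 CPM. Of 27 collagen and laminin genes 11 were lower and 0 higher, and 2 passed downward (median -0.40, and -0.21 without WT_d24_2), with *Col1a1* at 509 and 960 CPM and then at 279 and 590 CPM. Of 60 replication-dependent histone genes 30 were lower and 2 higher, and 1 passed upward and 2 downward (median -0.30, from -0.55 without WT_d26_1 to -0.10 without WT_d26_2). Of 84 cytosolic ribosomal protein genes 40 were lower and 7 higher, and 4 of 83 in the 8-library fit passed downward (median -0.12, from -0.24 without WT_d26_1 to -0.07 without WT_d26_2). The mitochondrial ribosomal RNAs *mt-Rnr1* and *mt-Rnr2* were at 5102 and 4428 CPM and 3275 and 2547 CPM at day 24, and at 2508 and 2400 CPM and 1452 and 1344 CPM at day 26. Both passed downward in the 8-library fit and neither did in the 24-library fit (adjusted p = 0.881 and 0.864). Their share of counts also varied within groups, from 0.170% to 1.06% in the day 22 knockout and from 0.484% to 3.26% in day 20 wild type. The libraries were depleted of ribosomal RNA, and the part of that step was not tested.

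**Figure D4:**
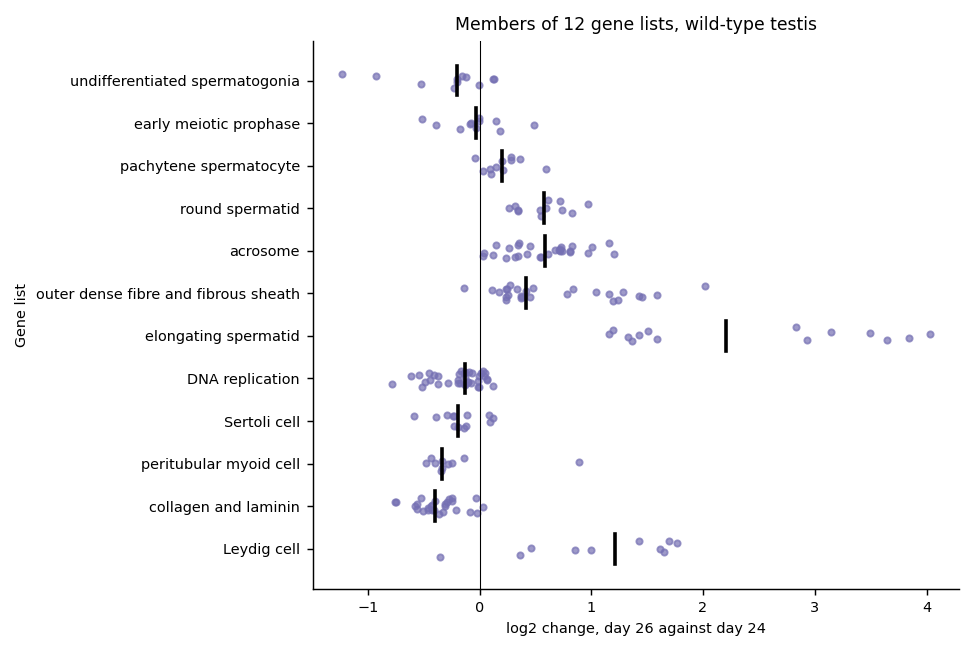
Log2 change from day 24 to day 26 of each tested member (points) of 12 gene lists, with the median of each list as a black bar. The elongating spermatid list has a median of 2.21 and the Leydig cell list one of 1.21, while the lists of spermatogonia, early meiosis, DNA replication, Sertoli cells and connective tissue have medians below 0.

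Leydig cells are the somatic cells that make testosterone. Of their 10 tested markers 7 were higher without overlap and 0 lower (median log2 change 1.21, and 0.52 without WT_d26_1), 0 passed in the 24-library fit and 2 in the 8-library fit. *Star*, which carries cholesterol into mitochondria, was at 38.4 and 43.5 CPM at day 24 and 134 and 118 CPM at day 26 (1.62, SE 0.60, adjusted p = 0.391, and 0.0135 in the 8-library fit). At day 20 *Star* was at 31.3 to 42.4 CPM and at day 22 at 52.8, 49.6, 230 and 72.5 CPM, so 1 day 22 library lay above both day 26 libraries. *Cyp11a1*, the first enzyme of steroid synthesis, was at 114 and 173 CPM and then at 505 and 266 CPM (1.42, adjusted p = 0.403). *Hsd17b3*, which makes testosterone and was named after its values were seen, was at 4.28 and 5.98 CPM and then at 20.6 and 14.3 CPM (1.77, adjusted p = 0.0809, and 0.00955 in the 8-library fit). In the knockout the 10 markers had a median of -0.17, and *Star* was at 109 and 99.4 CPM at day 24 and 117 and 68.2 CPM at day 26. The difference between genotypes did not pass for *Star* (unadjusted p = 0.0466, adjusted p = 1.0) or any other of the 10.

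Sertoli cells, the somatic cells that nurse the germ cells, had a median of -0.20 over 13 markers (-0.08 without WT_d26_2), 5 were lower without overlap and 0 higher, and 0 passed in either fit, with *Sox9* at 74.0 and 59.5 CPM and then at 53.1 and 48.9 CPM and *Wt1* at 79.5 and 76.1 CPM and then at 65.3 and 70.6 CPM. Of 10 peritubular myoid markers 7 were lower without overlap and 1 higher (median -0.34, from -0.51 without WT_d26_1 to -0.20 without WT_d24_2 or WT_d26_2), with 1 passing upward and 1 downward in the 8-library fit, and *Acta2*, smooth muscle actin, was at 281 and 310 CPM and then at 240 and 185 CPM. Macrophage markers had a median of 0.18, which turned to -0.07 without WT_d24_1 and -0.12 without WT_d26_1 and was 0.43 without WT_d24_2 and 0.51 without WT_d26_2. Of 12 macrophage markers 2 were higher without overlap and 0 lower. Of 10 endothelial markers 5 were lower and 1 higher (median -0.28, from -0.46 without WT_d24_1 to -0.07 without WT_d24_2). None of these passed in either fit, and 0 of 26 genes of Sertoli junctions and hormone response did. Of 22 cholesterol synthesis genes 2 passed upward in the 8-library fit (median 0.20, and -0.01 without WT_d26_1), and of 38 proteasome subunits 1 did. *Csf1r*, the macrophage growth factor receptor, was at 31 and 59.3 CPM and then at 71.0 and 39.5 CPM, and the endothelial *Pecam1* was at 7.07 and 11.7 CPM and then at 5.04 and 8.82 CPM. Of 4 tested blood cell markers 3 were higher without overlap and 1 lower (median 1.10, log2 changes from -1.07 to 3.26). In the 8-library fit 1 of 3 passed upward, and 0 passed in the 24-library fit. Their summed level was 10.9 and 12.9 CPM at day 24 and 52.5 and 41.8 CPM at day 26. The erythroid *Alas2* was at 7.26 and 7.27 CPM and then at 10.7 and 9.26 CPM (log2 change 0.46, adjusted p = 0.878). The part of blood cells in the other changes was not tested.

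The genes that fell were *H19* and *Spint5*. *H19*, an imprinted long noncoding RNA expressed from the maternal allele (chromosome 7, 142575529 to 142578143), was at 13.2 and 16.2 CPM at day 24 and 3.53 and 4.66 CPM at day 26 (log2 change -1.84, SE 0.37, adjusted p = 0.0339). Its 8 libraries of days 20 and 22 lay between 9.93 and 22.6 CPM, above both day 26 libraries. With any 1 of the 4 libraries left out *H19* kept its direction and lost the call (adjusted p from 0.102 to 0.531). In the knockout it was at 6.15 and 5.82 CPM at day 24 and 3.03 and 3.56 CPM at day 26. The fall of *Spint5*, a gene of the serine protease inhibitor family (chromosome 2, 164715305 to 164718068), rested on 1 library. It was at 1.49 CPM in WT_d24_1, 45.1 CPM in WT_d24_2, and 1.10 and 1.08 CPM at day 26 (-4.41, SE 0.88, adjusted p = 0.0358), and without WT_d24_2 the change was -0.48 (adjusted p = 1.0). *Crisp1* and *Adam7* were high in both WT_d24_2 and WT_d26_2, and *Spint5* was at 45.1 CPM in the first and 1.08 CPM in the second. The part of epididymal transcripts in the level of *Spint5* was not tested.

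With fewer than 3 falls past the size rule, the 6 genes of next lowest p in that direction are given, none past the threshold. They were *Ppp2r2c*, a phosphatase regulatory subunit (12.7 and 8.69 CPM, then 3.82 and 2.94 CPM, adjusted p = 0.0592), *Lyve1*, a lymphatic and macrophage receptor (6.76 and 5.23 CPM, then 1.62 and 2.73 CPM, adjusted p = 0.0738), and *Megf6* (6.21 and 7.61 CPM, then 1.85 and 2.08 CPM, adjusted p = 0.0809). The others were *Tnfrsf11b*, the decoy receptor osteoprotegerin (2.61 and 1.09 CPM, then 0.290 and 0.502 CPM, adjusted p = 0.0838), *Rab7b* (13.7 and 11.7 CPM, then 7.65 and 5.38 CPM, adjusted p = 0.0874) and the matrix protease *Adamts9* (34.6 and 39.7 CPM, then 23.3 and 20.0 CPM, adjusted p = 0.0904). In all 6 both day 26 libraries lay below both day 24 libraries, and all 6 passed in the 8-library fit.

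The 4 knockout libraries of days 24 and 26 share none with wild type, so they show the 45 rising genes in independent libraries. All 45 had a log2 change above 0 in the knockout, where 48.6% of all genes did, and 43 were higher without overlap, against 35.9% of all genes. The 2 exceptions were *Pcdhb3* and *Dydc2*. The knockout changes ran from 0.04 to 1.92 with a median of 1.08, and 43 were smaller than in wild type. The genes were chosen by their wild-type change, so the smaller size is given only as a description. *Spata32* was at 6.22 and 2.94 CPM in the day 24 knockout libraries and 15.3 and 19.4 CPM at day 26, and *Skp2* at 28.7 and 21.1 CPM and then at 45.4 and 42.6 CPM. *Prm1* was at 443 and 147 CPM in the knockout at day 24 and at 739 and 787 CPM at day 26.

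**Figure D5:**
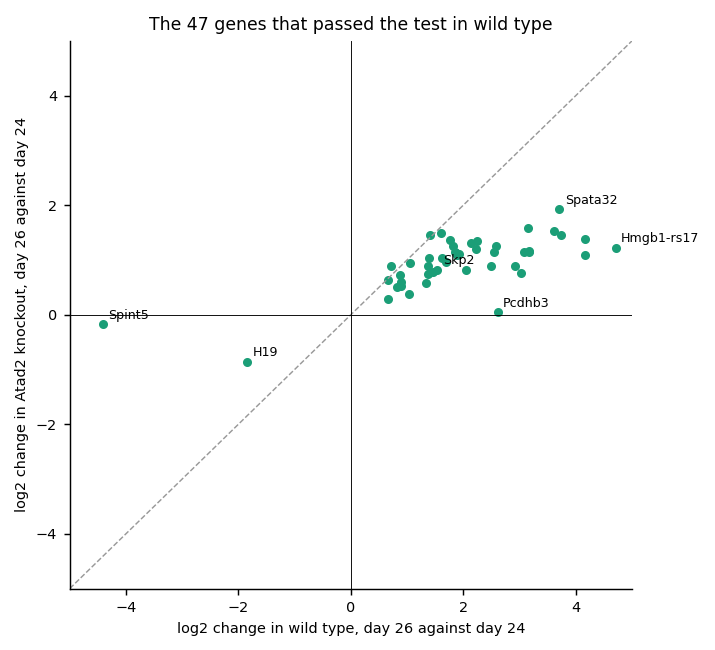
Log2 change from day 24 to day 26 in the *Atad2* knockout (vertical axis) against that in wild type (horizontal axis) for the 47 genes that passed the test in wild type, with a dashed line where both are equal. All 45 rises lie above 0 in the knockout as well, and 43 lie below the dashed line.

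The test of whether the step differs between genotypes called 0 of 17170 genes (0.0%), with 588 at an unadjusted p under 0.05 by edgeR and 0 by DESeq2 after adjustment. Of the 45 rising genes 18 had an unadjusted p under 0.05 in it. The 45 were chosen by the wild-type change that enters this test, so no conclusion is drawn from that count. The 5 genes of lowest p were *Gpc4*, a cell surface proteoglycan (28.7 and 28.9 CPM, then 36 and 29.8 CPM in wild type, and 30.3 and 30.3 CPM, then 19.6 and 19.3 CPM in the knockout), *St8sia5*, *Mycs*, *Rnf135* and *Appl2*. Their differences in log2 change, knockout minus wild type, were -0.83, 2.93, 1.94, -1.01 and -0.67, with an adjusted p of 1.0 each.

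The step before it shares the day 24 libraries and sets them against 4 libraries of day 22 rather than 2, so the counts of calls are not compared. In it 1010 genes rose from day 22 to day 24 (5.88%) in the 24-library fit. Of the 45 genes, 8 had also risen then, namely *Fam8a1*, *Wbp2nl*, *Paqr5*, *Fhdc1*, *Tmem144*, *Cdyl*, *4931428F04Rik* and *Nbr1*. The median change of the 45 was 0.57 in that earlier step. The test of the difference between the steps called 1 gene, downward, of 17170 (0.00582%), and this was *Spint5* (-8.57, SE 1.2, adjusted p = 0.0173), which rests on WT_d24_2. The next 4 by p were *Skp2* (difference 1.48, adjusted p = 0.276), the beta-defensin *Defb30* (-5.40, adjusted p = 0.276), *AY761185* (-12.77, adjusted p = 0.551) and *Pcdhb3* (4.0, adjusted p = 0.551). *Defb30* and *AY761185* share the pattern of *Spint5*: they were at 0.931 and 0 CPM in WT_d24_1, at 11.7 and 76.1 CPM in WT_d24_2, and at no more than 1.87 CPM at day 26.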

How the data were processed

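Per the labels and the methods of the study, total RNA of whole testes was ribosome-depleted, made into stranded libraries and sequenced as read pairs. The authors aligned the pairs to mm10 with STAR 2.7.11b and counted them in exons with HTSeq, by strand and without pairs of several alignments. Each deposited table gives a library's counts by gene symbol, which are neither scaled nor pooled. Pairs that did not match the exons of a gene on its strand made up 45.1% to 50.5% in the 4 libraries, and these can include intronic pairs. They and pairs of several alignments (7.18% to 8.86%) were left out of totals and fits. The gene model version is not given in the sources used here.

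Counts of all 24 libraries were fitted in edgeR 4.0.16 (R 4.3.3, limma 3.58.1) with 8 groups, TMM (trimmed mean of M-values), filterByExpr (minimum count 10) and robust quasi-likelihood dispersion, tested on simulated data. Genes with adjusted p under 0.05 passed. DESeq2 1.42.0 and other scalings, filters, library sets and left-out libraries were alternatives, and where a day kept 1 library it was assumed to vary like the other groups. The 4 libraries totalled 14422506 to 18017080 counts, and day 24 and day 26 have 2 each, so the spread is pooled over the 24. Genes were placed on mm10 by symbol with GENCODE and RefSeq annotation (110 of 24456 were unplaced), and intervals for low counts cover counting error only.

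Named genes were the 12 largest non-overlapping called rises and falls at a mean of at least 1 CPM in the higher group (with fewer than 3 in a direction, the 8 of lowest p), up to 3 called members per list and direction, or the first 2 tested members of a list with none, *Atad2*, and the 5 genes of lowest p in the other 2 tests. The comparison and the lists were chosen with earlier results of these data known. Not every gene the rule names is reported here.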

Additional observations from a re-analysis of the deposited data

Results flagged for a closer look

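*Spint5* had the 1 difference between the wild-type steps that passed, a log2 difference of -8.57 between the change from day 24 to 26 and the change from day 22 to 24. It was tested in edgeR across all genes, and it rests on the level of 45.1 CPM in WT_d24_2.

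Among the 4 libraries of a day, a single library lay far from the other 3 in 7 cases of the named rises and falls at days 20 and 22, and chance does so for about 1 in 20 groups. Of these, 3 were single counts in genes at 0 in the other libraries: *Hmgb1-rs17* at 0.0511 CPM in WT_d22_4, *4930432J09Rik* at 0.0578 CPM in WT_d20_3 and *Smok2b* at 0.0511 CPM in WT_d22_4. *Dydc2* was at 0.920 CPM in WT_d22_2, against 0.233 to 0.282 CPM in the others. *H19* was at 20.5 CPM in WT_d20_3 and 22.6 CPM in WT_d22_4, against 11.5 to 12.5 CPM and 9.93 to 11 CPM in the others. *Adamts9* was at 65.6 CPM in WT_d20_2, against 46 to 49.2 CPM.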

How the results depend on the processing

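The count of 47 genes was 190 with DESeq2, 285 on the 12 wild-type libraries, 1336 on the 8 libraries of days 24 and 26 and 702 on the 4 wild-type libraries, and it ran from 1 to 144 when single libraries were left out. The other scalings, filters, fold thresholds and estimators gave 33 to 60. The labels tie replicate numbers to no shared origin, and 2 libraries a day cannot settle whether the numbers pair them (deviations of same-numbered libraries correlated at 0.427, and replicate 2 held the epididymal transcripts at both days in both genotypes). With the replicate block 38 genes were called, 33 of the 47 kept the call and 14 lost it. All 47 genes kept their direction in each alternative. The difference between genotypes stayed at 0 genes except for 1 without WT_d24_1, so its range over left-out libraries was 0 to 1. The difference between the wild-type steps, 1 gene, was 2 with DESeq2, 0 on the 12 wild-type libraries, 0 with the replicate block, and 0 to 17 with single libraries left out. The cause of these moves was not tested. Replicates differed by more than counting error (chi-square per gene 14.4 within each day), so at 2 libraries a day counting error is a lower limit on the error of a gene.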
